A study of Arabidopsis thaliana with 12 samples.

Results

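The comparison described here set shoots of the Arabidopsis thaliana mutant sid2-1 against wild-type shoots, both in the Col-0 background and both grown at 22 °C. It used the 3 arrays titled as warm sid2-1 and the 3 arrays titled as warm wild type, 6 of the 12 arrays of the study, chosen by their titles alone. Per the labels, plants were raised in soil in a growth chamber under a 12 h photoperiod for about 23 days, and RNA was taken from the whole aerial part. Per the labels, the other 6 arrays hold the same genotypes after 3 weeks at 4 °C, and those plants were harvested 4 h after lights on. No hour of harvest is given for the warm plants as such, and a bracketed mark in the titles of warm wild type is left without explanation. The mutant was represented by 1 allele, so that other differences between the lines cannot be told apart from the lesion.

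Salicylic acid is a plant hormone of immunity, made in Arabidopsis mostly from isochorismate in the chloroplast. The sid2-1 allele disrupts the isochorismate synthase needed for most of the salicylic acid made after infection, while unchallenged leaves hold little of the hormone. Salicylic acid acts through the coactivator NPR1 and TGA transcription factors, which switch on pathogenesis-related and other defence genes. The question of the comparison is how far the lesion alters the transcriptome before any stress, and in which genes.

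Signals were deposited on a log2 scale, with a lowest value of 2.2, and a difference of 1 on that scale is 2-fold. Differences are given as sid2-1 minus wild type on the log2 scale, and array values in the order of replicates 1, 2 and 3. They were tested with limma in 1 fit over the 12 arrays, without a block for the replicate number. P-values were adjusted by Benjamini-Hochberg over 22746 probe sets, and a probe set was called at an adjusted p under 0.05. Each standard error (SE) comes from this fit and pools the spread of the arrays at both temperatures. It can be smaller or larger than the 6 warm arrays alone would give. The n beside it counts the arrays whose means were compared. Median signal on the 6 arrays was 4.41 to 4.46, and the lowest value made up 13.0% to 15.2% of each array. In whole shoots, fewer cells of a type and less RNA per cell cannot be told apart.

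Of 9 markers of green shoot, the 2 with a named probe set were bright, RCA (Rubisco activase) at 13.74 to 14.01 and the antenna gene LHCB4.2 at 13.19 to 13.49. Among the 3 measured root markers of 7 listed, PYK10 and EXPA7 stood at 2.2 on all 6 arrays. LPR2, the third, was at 8.86, 9.05 and 9.02 in wild type and at 8.39, 8.82 and 8.25 in sid2-1, lower on every sid2-1 array by -0.49 on average and not called. Among the 2 measured flower and pollen markers of 7, the tubulin gene TUA1 lay at 7.09 to 7.69 and AT5G45880 at 3.37 to 3.91. ICS1, the gene mutated in sid2-1, has no named probe set here, so the genotype labels were not checked against it.

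Differences between sid2-1 and wild type in the warmth were small. Only 1 of the 22746 probe sets was called, that of AT2G40530, a share of 0.0044%. With the replicate number as a block within each temperature, limma called 0 after Benjamini-Hochberg adjustment. At an unadjusted p under 0.05, 689 probe sets passed (3.03%), where 5% of the probe sets would be 1137.3; with the block 1054 passed (4.63%). Tested alone, the probe sets with a mean above 4 gave 0 calls and 342 at that unadjusted p (2.75%). The 689 were split evenly, 350 higher in sid2-1 (1.54%) and 339 lower (1.49%). For comparison, the same contrast at 4 °C, taken from the same fit over all 12 arrays, called 140 probe sets (0.615%). Of these, 137 were lower in sid2-1 (0.602%), and 2236 probe sets (9.83%) passed the unadjusted p. These calls rest on the pooled spread. Fitted alone, the 6 arrays at 4 °C called no probe set, and the 6 arrays at 22 °C called 2. With the replicate block within each temperature the 4 °C calls came to 27 (0.119%), 24 of them lower.

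Size and error tell how small an effect the data allow. Among the 12422 probe sets with a mean above 4 over all arrays, the median size of the difference was 0.15, or 1.11-fold. The middle 90% of the differences ran from -0.39 to 0.43 and the middle 98% from -0.63 to 0.72. The median standard error was 0.24, larger than the median difference. In this group, 9691 probe sets (78.0%) had a 95% confidence interval that lay wholly within 2-fold in either direction, against 8395 (67.6%) for the contrast at 4 °C. For the rest, a 2-fold difference lies inside the interval.

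**Figure D1:**
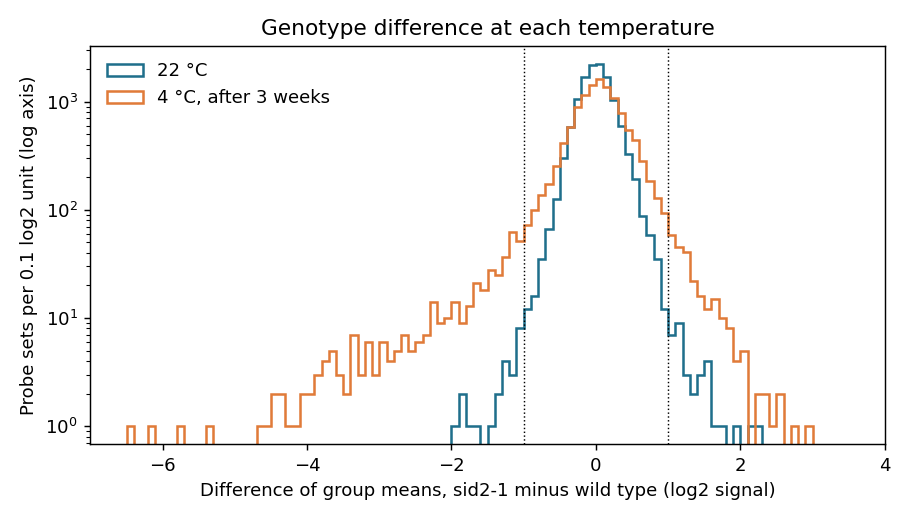
Histogram of the log2 difference between sid2-1 and wild type for the 12422 probe sets with a mean above 4, at 22 °C and after 3 weeks at 4 °C, in bins of 0.1 log2 units on a logarithmic count axis. Dotted lines mark 2-fold; the 22 °C distribution is narrower (56 probe sets past 2-fold, 0.451%, against 658, 5.3%) and lacks the long tail of lower values seen at 4 °C.

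A difference of at least 2-fold was seen in 59 of all probe sets tested (0.259%), against 806 (3.54%) at 4 °C. Of the 59, 34 were higher and 25 lower in sid2-1, 49 had the same sign in all 3 same-numbered pairs, and 22 had no overlap between the genotypes. Over all probe sets 8.13% were lower and 8.53% higher in all 3 pairs, and 2.4% lower and 2.53% higher with no overlap. For those with a mean above 4 these shares were 12.2%, 13.3%, 3.37% and 3.9% in that order. The 59 were picked for a large difference, which raises both counts. None of them was called, and 19 had an unadjusted p under 0.05. A named gene could be assigned to 24, 8 lower and 16 higher. RING1, AT1G13470, AT5G18780 and PUB19 were among the lower ones, and PDF1.2, PDF1.2b, HTB2 and AT3G44970 among the higher ones. CSLA01, a cellulose synthase-like gene chosen with STOMAGEN after their values were seen, lay at 6.88, 5.34 and 6.02 in wild type and at 8.44, 7.01 and 6.78 in sid2-1, a difference of 1.33 ± 0.47 (SE, n = 3 against 3) that was 0.82 without sid2-1 replicate 1. STOMAGEN, which encodes a secreted peptide that promotes stomata, lay at 7.04, 5.72 and 6.10 in wild type and at 7.40, 7.65 and 7.78 in sid2-1. Both genes were higher in all 3 pairs, and wild type and mutant overlapped for CSLA01 only. STOMAGEN was also higher in sid2-1 at 4 °C by 1.64, and CSLA01 by 0.14.

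Arrays differed more between replicate numbers than between genotypes. Arrays of the same genotype correlated at 0.959 to 0.971 across the probe sets with a mean above 4 (6 pairs). Arrays of different genotype with the same number correlated at 0.969 to 0.979 (3 pairs), and those with different numbers at 0.956 to 0.969 (6 pairs). On average the correlation was 0.975 for same-numbered arrays of different genotype, 0.963 within a genotype and 0.960 for the others. After the group means were removed, same-numbered arrays at 22 °C correlated at 0.283 to 0.467 and differently numbered ones between genotypes at -0.401 to 0.0462. The root mean square difference between replicate numbers, over means of 2 arrays, was 0.395 to 0.451, and between genotypes, over means of 3 arrays, 0.263. Between replicate numbers, 287 to 454 of the 12422 probe sets differed 2-fold or more, and between genotypes 56.

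The first principal component of the 6 arrays held 35.7% of the variance and placed both replicates 1 at one end (-22.9 and -23.2) and both replicates 3 at the other (26.5 and 25.2). The second held 24.6% and set the replicates 2 apart (29 in wild type and 20.2 in sid2-1). Only the third component, with 16.8%, parted the genotypes, with wild type at -12.3, -14.7 and -12.8 and sid2-1 at 1.2, 18.6 and 19.9. Replicate 1 of sid2-1 lay nearest to the wild type on it.

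**Figure D2:**
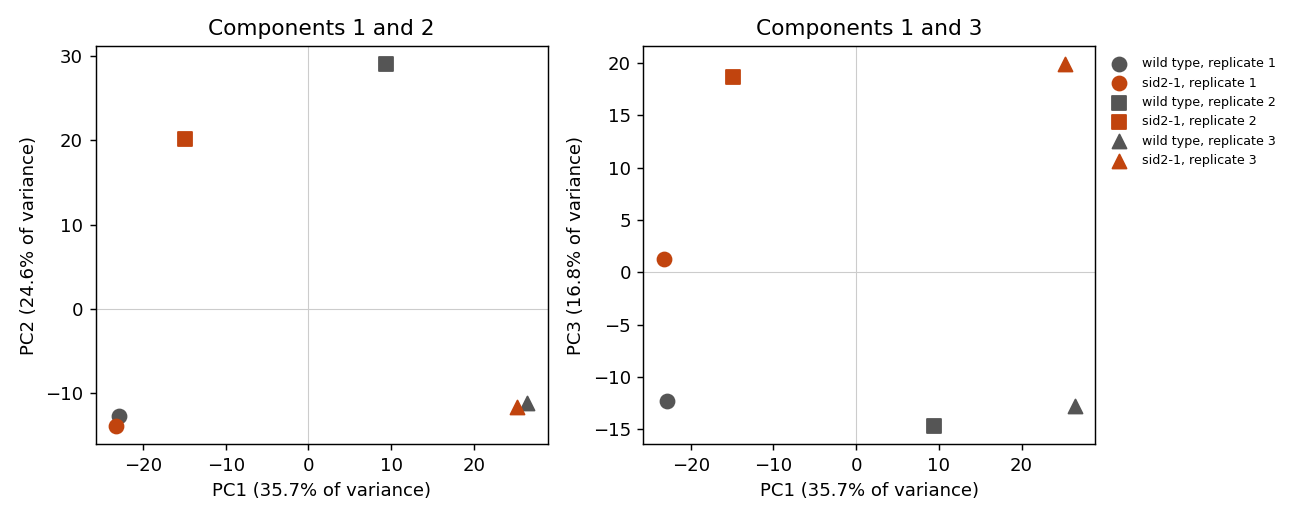
Scores of the 6 arrays at 22 °C on principal components 1 and 2 (left) and 1 and 3 (right), in log2 units over 12422 probe sets; grey marks wild type, orange sid2-1, and the symbol gives the replicate number. Same-numbered arrays lie together on the left panel for replicates 1 and 3, and the genotypes part on the third component.

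Genes that moved with the replicate number, chosen after their values were seen, show what that axis held. STZ, a zinc finger repressor induced by cold, wounding and other stress, was at 3.74, 6.95 and 3.96 in wild type and at 3.08, 6.34 and 4.07 in sid2-1, high in replicate 2 of both. COR15A, which encodes a cold-induced protectant of chloroplast membranes, was at 9.88, 9.06 and 11.16 in wild type and at 10.02, 8.84 and 11.22 in sid2-1, highest in replicate 3 of both. CCS, the copper chaperone of superoxide dismutase, was at 6.22, 7.37 and 8.36 in wild type and at 5.83, 7.01 and 8.83 in sid2-1. PORB, a protochlorophyllide reductase of chlorophyll synthesis, was lowest in replicate 3 of both, at 8.43 and 9.61, against 10.07 to 11.32 on the other 4 arrays. For each of these 4 genes both genotypes had the same replicate at the high or the low end. The genotype means of COR15A differed by -0.01 ± 0.66 (SE, n = 3 against 3), and the SE was 0.20 with the replicate block within each temperature.

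The called probe set belonged to AT2G40530. Wild type had 2.81, 2.84 and 2.69 and sid2-1 had 2.34, 2.23 and 2.23, so the groups did not overlap. The difference was -0.51 ± 0.04 (SE, n = 3 against 3; limma adjusted p = 0.0191 by Benjamini-Hochberg). That SE also draws on the 4 °C arrays, whose values stood at the floor with standard deviations of 0.01 in wild type and 0.0058 in sid2-1. At 22 °C the standard deviations were 0.079 and 0.064. All 6 warm values lie close to the lowest value of 2.2, where the size of a difference depends on the background correction. With the replicate block within each temperature the adjusted p was 0.423, with the 6 arrays fitted alone 0.513, and with the array medians subtracted 0.114. That probe set is left out where only signals above 4 are tested. With the 6 arrays alone, the named call was instead AT2G39560, at 3.54 on every wild-type array and 4.08, 4.03 and 4.03 in sid2-1 (adjusted p = 0.0389 by limma), again in the dim range.

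Of the genes that the salicylic acid pathway involves, those of synthesis (11 listed) and the pathogenesis-related genes (5 listed) have no named probe set here and are not analysed. Among 30 listed genes of salicylic acid signalling and turnover, 6 were measured, of which 4 were lower in sid2-1, 1 was higher and 1 was equal. Their median difference was -0.18, beside 0.00 over all probe sets, and none was called. The median ran from -0.32 (without sid2-1 replicate 3) to -0.04 (without sid2-1 replicate 2) as single arrays were left out. SAG101, which encodes a lipase-like partner of the immune regulator EDS1, was at 3.42, 3.52 and 3.21 in wild type and 2.64, 3.04 and 3.33 in sid2-1, lower in 2 of 3 pairs, and its difference of -0.38 was -0.20 without sid2-1 replicate 1. The locus AT5G52810 was at 5.90, 6.17 and 7.10 against 5.70, 5.24 and 6.22, lower in all 3 pairs, with a difference of -0.67 ± 0.47 (SE, n = 3 against 3) at overlapping ranges, and -0.32 without wild-type replicate 3.

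The other 4 genes of the list gave no signal near a call. GRX480, a glutaredoxin gene induced by salicylic acid, differed by -0.10 ± 0.20, and UGT74F1, a salicylic acid glucosyltransferase gene, by 0.13 ± 0.15 (SE, n = 3 against 3). UGT76B1, another glucosyltransferase gene of salicylic acid, stood at the lowest value on all 6 arrays. BSMT1, which encodes the methyltransferase that makes methyl salicylate, was at 2.38, 2.38 and 4.62 in wild type and at 2.38, 2.32 and 3.87 in sid2-1. Replicate 3 was the high array in both genotypes, and the BSMT1 difference of -0.27 turned to 0.48 without wild-type replicate 3.

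Defence-associated genes leaned lower. Of the 17 genes of this list, 15 were lower in sid2-1 and 2 higher, where 44.4% of all probe sets tested and 49.3% of those with a mean above 4 were lower. Their median was -0.19 at 22 °C and -3.43 at 4 °C, and none was called at 22 °C. At 22 °C 5 were lower in all 3 pairs, against 8.13% of all probe sets and 12.2% of those with a mean above 4. The list was drawn up with the 4 °C results known, and it is not independent evidence of the direction. The median by pair was -0.06, -0.60 and -0.02, and without wild-type replicate 2 it was -0.10. The lean thus came mostly from the pair numbered 2.

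RING1, a RING-type ubiquitin ligase gene induced by pathogens, was at 8.48, 10.19 and 9.31 in wild type and at 8.23, 8.36 and 8.21 in sid2-1. The sid2-1 arrays were all below the wild-type arrays and close together, while the wild-type arrays spread more. The difference was -1.06 ± 0.47 (SE, n = 3 against 3; unadjusted p = 0.0501 by limma, not called), and it ran from -1.48 to -0.63 when single arrays were left out. At 4 °C the RING1 difference was -2.72.

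AT1G13470 was at 5.79, 6.59 and 6.56 in wild type and at 5.06, 5.04 and 5.83 in sid2-1, lower in all 3 pairs with an overlap of single arrays. The difference of -1.0 ± 0.33 (SE, n = 3 against 3) had an unadjusted p of 0.0156 by limma and was not called. At 4 °C it was -3.69. CHI (AT2G43570), a putative chitinase gene, was at 4.26, 5.41 and 4.30 against 3.93, 3.22 and 4.44, with a difference of -0.79 ± 0.75 that shrank to -0.42 without wild-type replicate 2. AT5G55450 differed by -0.93 ± 0.65 and AT4G00700 by -0.89 ± 0.70 (SE, n = 3 against 3), and for the latter the value of 4.45 in wild-type replicate 2 stood above 2.34 to 2.99 on the other 5 arrays. Without that array the AT4G00700 difference was -0.30, and the AT5G55450 difference ran from -1.50 (without wild-type replicate 1) to -0.36 (without sid2-1 replicate 1).

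Some other genes of the list that differed strongly in the cold had low signals and small differences in the warmth. The subtilase gene SBT3.3 lay at 2.31 to 2.34 on all 6 warm arrays and was lower in sid2-1 by -5.29 at 4 °C. The heavy-metal-domain gene AT5G52760 was at 3.45, 4.15 and 3.40 in wild type and at 3.52, 3.45 and 3.46 in sid2-1, a difference of -0.19 ± 0.26 at 22 °C against -3.53 at 4 °C. The TIR-domain gene AT1G57630 lay at 2.39 to 2.90 and AT2G20142 at 3.02 to 3.07 on the warm arrays. For AT5G52760, AT1G57630 and AT2G20142 the difference itself changed between the temperatures, with limma adjusted p-values of 0.0279, 0.0295 and 0.0172 in that order, and 14 probe sets were called in that test (0.0615%). With the replicate block within each temperature 0 were called by limma, 1401 passed an unadjusted p under 0.05, and the adjusted p-values of these 3 genes were 0.223, 0.271 and 0.13. AT3G47480, at 3.35, 4.78 and 3.36 in wild type and at 3.42, 2.93 and 3.41 in sid2-1, differed by -0.58 in the warmth and -3.68 in the cold, with wild-type replicate 2 as the high array. In the defence list the 2 genes with a higher value in sid2-1 were LCR69, a defensin-like gene (0.61 ± 0.36), and AT4G12490 (0.21 ± 1.09; SE, n = 3 against 3). The LCR69 difference was 0.19 without sid2-1 replicate 2.

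**Figure D3:**
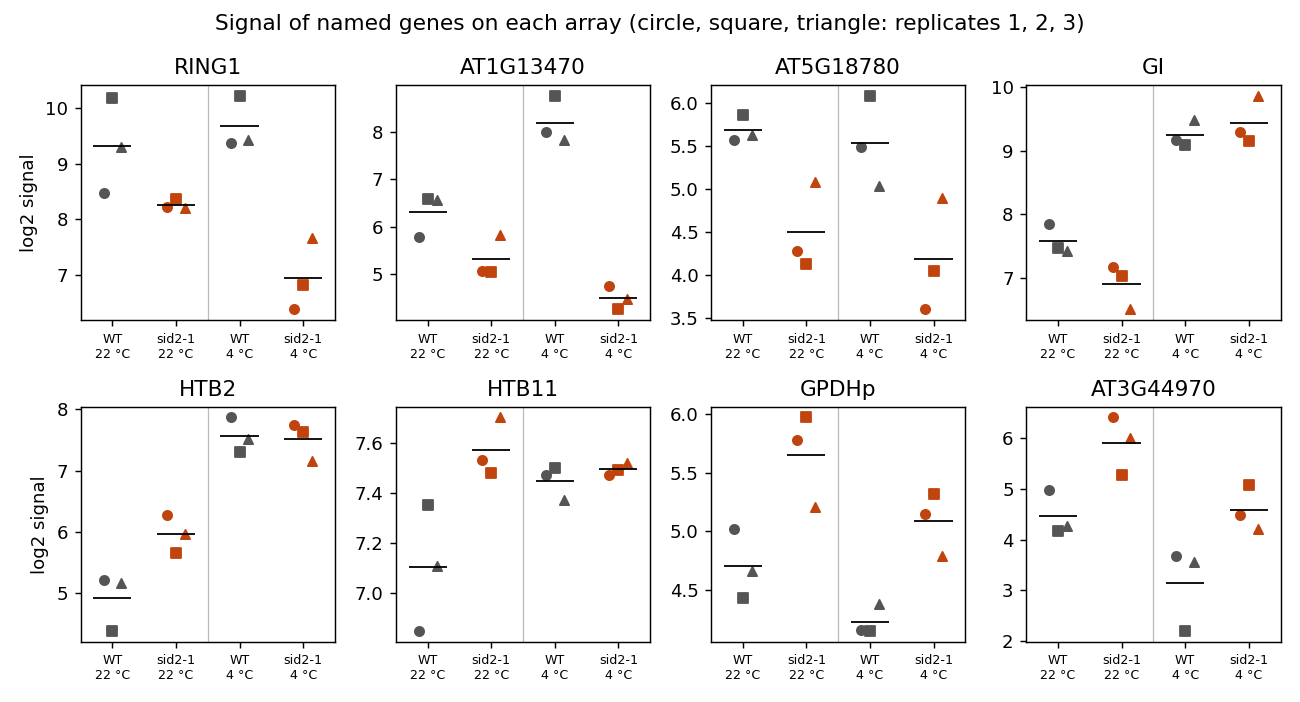
Log2 signal of 8 genes on all 12 arrays, with 1 point per array and the symbol for the replicate number; the bar is the group mean of 3 arrays, and each panel has its own axis, which does not start at 0. At 22 °C RING1, AT5G18780 and GI are lower on every sid2-1 array than on any wild-type array, HTB2, HTB11, GPDHp and AT3G44970 are higher, and AT1G13470 overlaps.

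The probe sets called lower in sid2-1 at 4 °C also leaned lower at 22 °C. Their selection was not independent of the warm arrays, which supplied part of the residual spread. The 4 °C arrays fitted alone called no probe set. Of the 137 probe sets called lower at 4 °C, 105 (76.6%) were lower in sid2-1 at 22 °C, 27 higher and 5 equal, and 0 were called at 22 °C. By limma 8 of the 137 had an unadjusted p under 0.05 on the lower side. Their median difference was -0.17 at 22 °C and -2.42 at 4 °C. At 22 °C 45 (32.8%) were lower in all 3 pairs against 8.13% of all probe sets, and 18 (13.1%) were lower with no overlap against 2.40%. Most of the 137 had a mean above 4, and over all probe sets of that class the shares were 12.2% and 3.37%. The mean of the 137 was 4.68, 5.11 and 4.71 on the wild-type arrays and 4.55, 4.59 and 4.56 on the sid2-1 arrays. Every sid2-1 array was below every wild-type array, and wild-type replicate 2 was the highest. With the replicate block within each temperature 24 probe sets were called lower at 4 °C, 15 of them among the 137, and 19 of the 24 were lower at 22 °C with a median of -0.19.

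That array set the size of the lean. The median by pair was -0.04, -0.28 and -0.04. Leaving out wild-type replicate 2 of the warm arrays gave a median of -0.045. Leaving its 4 °C counterpart out of the selection gave -0.06, and leaving out both gave -0.02. Wild-type replicate 2 also had the highest mean of these probe sets at 4 °C, 7.54 against 6.94 and 6.63. Across temperatures, the deviations of the wild-type arrays numbered 2 correlated at 0.244, those numbered 1 at 0.000126 and those numbered 3 at 0.00088. For sid2-1 the values were 0.179, 0.031 and 0.066 for numbers 1, 2 and 3. Whether the 2 wild-type arrays numbered 2 share a source was not tested.

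**Figure D4:**
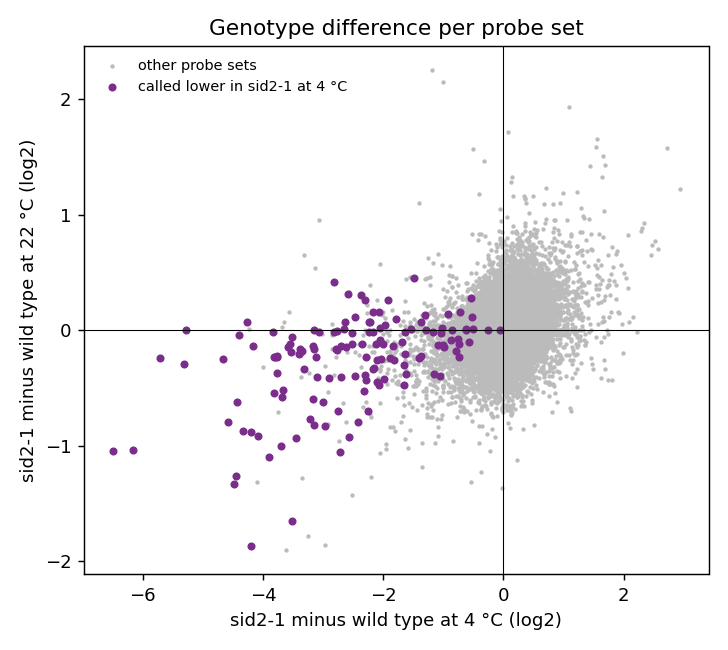
Log2 difference between sid2-1 and wild type for each of 22746 probe sets at 4 °C (horizontal) and at 22 °C (vertical), with the 137 called lower at 4 °C in purple. Most purple points (105) lie below the horizontal zero line, within 2 log2 units of it, while they spread much farther along the horizontal axis.

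Brighter members of the set carried more of it. For the 83 with a warm mean above 4, 68 (81.9%) were lower, with a median of -0.24 and by pair -0.14, -0.43 and -0.16. The 63 with a named gene include AT1G10340 (4.46, 5.09 and 4.33 against 3.79, 3.73 and 3.87), AT4G03450 (4.36, 5.38 and 4.95 against 3.77, 4.47 and 3.99) and AT1G66880 (7.08, 7.21 and 7.15 against 6.75, 6.41 and 6.85), chosen after their values were seen. AT1G10340 and AT1G66880 were lower on every sid2-1 array than on any wild-type array, and AT4G03450 was lower in all 3 pairs. At the other end stood BGLU25, a beta-glucosidase gene, with 5.84, 5.55 and 5.58 in wild type and 6.52, 5.65 and 6.16 in sid2-1, higher by 0.45 in the warmth and lower by -1.48 in the cold. Over all 12422 probe sets with a mean above 4, the differences at 22 °C and 4 °C, which share no array, correlated at 0.362 (Pearson) and 0.303 (Spearman). Pearson's value was 0.191 once the warm wild-type replicate 2 was left out; probe sets are not independent replicates.

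Among probe sets joined to 1 gene, 159 met the rule for named genes of a mean above 4, an unadjusted p under 0.05 and no overlap. Of these 75 were lower and 84 higher, and none was called. Of all 12422 probe sets with a mean above 4, named or not, 3.37% were lower and 3.9% higher with no overlap at any p. Those shares are for a wider criterion, and the share meeting the full rule was not counted. On the lower side, the locus AT5G18780 was at 5.57, 5.86 and 5.62 in wild type and at 4.28, 4.13 and 5.08 in sid2-1, a difference of -1.19 ± 0.39 (SE, n = 3 against 3). It was also lower at 4 °C, by -1.35. GI, a clock-associated gene that promotes flowering in long days, was at 7.84, 7.47 and 7.42 in wild type and at 7.16, 7.02 and 6.50 in sid2-1, a difference of -0.68 ± 0.24 (unadjusted p = 0.0186 by limma). At 4 °C the GI difference was 0.19. The remaining 8 of the 10 largest falls under the rule lay between -0.73 and -0.61, at AT1G11050, AT2G46560, AT1G55280, AT3G05670, AT3G46220, the deubiquitinating enzyme gene UBP16, AT2G32600 and AT5G01960.

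On the higher side, AT3G44970 was at 4.97, 4.18 and 4.28 in wild type and at 6.41, 5.27 and 6.01 in sid2-1, a difference of 1.42 ± 0.46 (SE, n = 3 against 3), and at 4 °C it was higher by 1.44. GPDHp, a glycerol-3-phosphate dehydrogenase gene of the plastid, was at 5.02, 4.43 and 4.66 against 5.78, 5.97 and 5.21, higher by 0.95 ± 0.23 at 22 °C and by 0.86 at 4 °C. CYTC6A, a cytochrome c6-like gene, was at 5.74, 5.51 and 4.80 against 6.67, 6.31 and 5.99. The rule that picked these 3 genes required separate groups at 22 °C, and each had an adjusted p of 1 by limma. Of the 10 largest rises, AT1G27400 (0.93 ± 0.24), AT3G16080 (0.86 ± 0.29), AT5G05990 (0.81 ± 0.20), AT2G44120 (0.78 ± 0.27), AT5G27850 (0.76 ± 0.31) and AT1G12845 (0.76 ± 0.21) completed the list with HTB2.

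The 5 measured histone genes had higher means in sid2-1, although none was called. HTB2 and HTB11 were set to be named with earlier results of these data known. HTB2, which encodes histone H2B, a core protein of the nucleosome, was at 5.21, 4.38 and 5.16 in wild type and at 6.27, 5.66 and 5.97 in sid2-1. The HTB2 difference was 1.05 ± 0.28 (SE, n = 3 against 3; unadjusted p = 0.0045 by limma), and -0.05 at 4 °C. HTB11, another H2B gene, was at 6.85, 7.35 and 7.11 against 7.53, 7.48 and 7.70, a difference of 0.47 ± 0.11, and 0.05 at 4 °C. The groups did not overlap for either gene, as for 2.53% of all probe sets on the higher side and 3.9% of those with a mean above 4. HTB1 differed by 0.40 ± 0.30 and HTB4 by 0.39 ± 0.33, with overlap, and leaving out single arrays took them to as little as 0.22 (without wild-type replicate 2) and 0.07 (without sid2-1 replicate 3). The fifth measured histone gene, HTR12, differed by 0.05 at signals under 3 and was lower in 2 of 3 pairs. By their means all 5 were higher, 3 in all 3 pairs, with a median of 0.40 that ran from 0.28 to 0.57 as single arrays were left out. Of all probe sets tested 43.4% were higher and 8.53% higher in all 3 pairs, and of those with a mean above 4, 50% and 13.3%.

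Tubulin genes leaned the same way. Of 7 measured, 6 were higher and 1 was equal, with a median of 0.31 and 4 higher in all 3 pairs. Of all probe sets 43.4% were higher and 8.53% higher in all 3 pairs, and of those with a mean above 4, 50% and 13.3%. TUA6, an alpha-tubulin gene, was at 9.27, 9.75 and 9.55 in wild type and at 9.98, 10.22 and 9.86 in sid2-1, a difference of 0.50 ± 0.24 (SE, n = 3 against 3). TUB6, a beta-tubulin gene, was at 8.90, 8.85 and 9.15 against 9.36, 9.25 and 9.23. Both were higher on every sid2-1 array than on any wild-type array, as were 2.53% of all probe sets and 3.9% of those with a mean above 4. TUB7 differed by 0.72 ± 0.53, or 0.42 without wild-type replicate 2, and TUB5 by 0.41 ± 0.32, or 0.24 without wild-type replicate 3. None of the 7 was called.

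The brightest probe sets leaned upward as well. Of the 620 with a mean above 10, 380 (61.3%) were higher in sid2-1, with a median of 0.06, which was 0.02 once the arrays were quantile-normalized again. Their medians by pair were 0.07, 0.14 and -0.03, and 22 of the 25 with an unadjusted p under 0.05 were higher. No measured histone or tubulin gene lies in that class, since their means run up to 9.78. The class from 8 to 10 holds TUA6, TUB5, TUB6, TUB9 and HTB4. In it 51.2% were higher with a median of 0.01 (-0.03 after renewed quantile normalization), and 63 of 83 with an unadjusted p under 0.05 were higher. In the class from 6 to 8, which holds HTB2, HTB11, HTB1 and TUA1, 49.1% were higher, and of those at that p 56 were higher and 72 lower. Whether the lean of bright probe sets bears on the histone and tubulin values was not tested.

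The jasmonate and ethylene branch of defence, which salicylic acid is known to restrain, held the largest difference of all probe sets, at PDF1.2b. Of 26 listed genes 3 were measured. PDF1.2, the defensin gene used as its marker, was at 4.05, 4.03 and 4.03 in wild type and at 9.05, 4.82 and 4.69 in sid2-1. All sid2-1 arrays were above all wild-type arrays, but replicate 1 held most of the difference of 2.15 ± 1.28 (SE, n = 3 against 3; unadjusted p = 0.128 by limma), which was 0.72 without it. PDF1.2b was at 4.80, 5.87 and 4.50 against 9.43, 6.73 and 5.77, a difference of 2.25 ± 1.05 that was 1.19 without sid2-1 replicate 1. Its probe set can bind near-identical copies, so the 2 readings are not independent. At 4 °C the differences were -1.0 and -1.18. THI2.1, a thionin gene, was at 2.26 to 2.41 on 5 arrays and at 3.59 on sid2-1 replicate 3. Of 17 genes listed as defensins and thionins by their symbols, 13 were higher and 0 lower with a median of 0.06, and 5 were higher in all 3 pairs. The 13 include PDF1.2, PDF1.2b and THI2.1 again, and dim genes with small differences, such as LCR67 (0.003), LCR59 (0.01) and PDF1.4 (0.03). A mean above 4 was reached by 7 of the 17, among them the 5. Over all probe sets 43.4% were higher, and 8.53% were higher in all 3 pairs. For those with a mean above 4 the shares were 50% and 13.3%. The symbols also took in PDF1A and PDF1B, which are peptide deformylase genes and not defensins. Both count among the higher ones, at 0.31 and 0.21, and PDF1A was higher in all 3 pairs.

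Among other groups, some protein turnover genes were lower in sid2-1, while the medians of their lists lay near 0. Of 33 ubiquitin conjugation and U-box genes, 20 were lower and 10 higher, with a median of -0.04. Of all probe sets 44.4% were lower, and of those with a mean above 4, 49.3%. UBP16 was at 4.72, 4.82 and 4.80 in wild type and at 3.73, 4.62 and 4.03 in sid2-1, with no overlap and a difference of -0.65 ± 0.22 (SE, n = 3 against 3). UBC30, a ubiquitin-conjugating enzyme gene, differed by -0.56 ± 0.24. PUB19, a U-box ubiquitin ligase gene, was at 5.08, 4.70 and 6.91 against 4.75, 3.62 and 4.63, and its difference of -1.23 ± 0.58 was -0.56 without wild-type replicate 3. ATG3, which encodes the enzyme that joins ATG8 to lipid in autophagy, was at 8.17, 8.56 and 8.40 against 7.75, 7.89 and 8.0, lower by -0.50 ± 0.15 with no overlap. Of the probe sets with a mean above 4, a class that holds UBP16 and ATG3, 3.37% were lower with no overlap. The 10 autophagy genes as a list had 6 lower and 4 higher members and a median of -0.06.

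Cold-response genes showed no lean in the warmth. Of the 7 measured of 17 listed, 3 were higher and 4 lower, with a median of -0.01 that ran from -0.17 to 0.19 without sid2-1 replicates 3 and 2. The dehydrin genes COR47 and LTI30 differed by -0.43 ± 0.47 and -0.32 ± 0.45 (SE, n = 3 against 3), and by -0.09 and 0.00 without wild-type replicate 3. The 3 measured genes of protein folding in the endoplasmic reticulum, BZIP60, CRT1b and PDIL5-1, were lower by -0.13 to -0.19, each within 1 standard error, and without wild-type replicate 3 their median was 0.01. Of 5 glucosinolate genes, 4 were lower with a median of -0.23, led by the transporter gene GTR1 at -0.46 ± 0.30. Without wild-type replicate 3 these were -0.04 and -0.27, and without wild-type replicate 1 the median was -0.41. Nuclear light-harvesting and photosystem genes (9 measured) had a median of 0.07 and plastid-encoded photosynthesis genes (43 measured) one of -0.03.

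Some remaining named genes were low in signal. CML23, a calmodulin-like gene, stood at 2.31 on the wild-type arrays and sid2-1 replicate 1 and at 3.66 and 3.67 on the other 2. SWEET16, a sugar transporter gene of the vacuole membrane, was at 4.54, 3.81 and 3.08 in wild type and at 4.93, 4.87 and 4.17 in sid2-1, higher in all 3 pairs with overlapping groups; the difference of 0.85 was 0.48 without wild-type replicate 3. TMT3, a tonoplast monosaccharide transporter gene, was at 2.45, 2.24 and 2.54 against 2.20 on all sid2-1 arrays, and XTH20, a xyloglucan endotransglucosylase gene, at 3.32, 2.96 and 3.34 against 2.96, 2.96 and 2.82. CYP78A9, a cytochrome P450 gene, was at 6.65, 7.22 and 7.43 against 6.87, 5.68 and 6.19, lower in 2 of 3 pairs with a difference of -0.85 ± 0.31 (SE, n = 3 against 3). Across all 30 gene lists with 3 or more measured genes, 0 members were called by limma at 22 °C, as for 0.0044% of all probe sets.

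**Figure D5:**
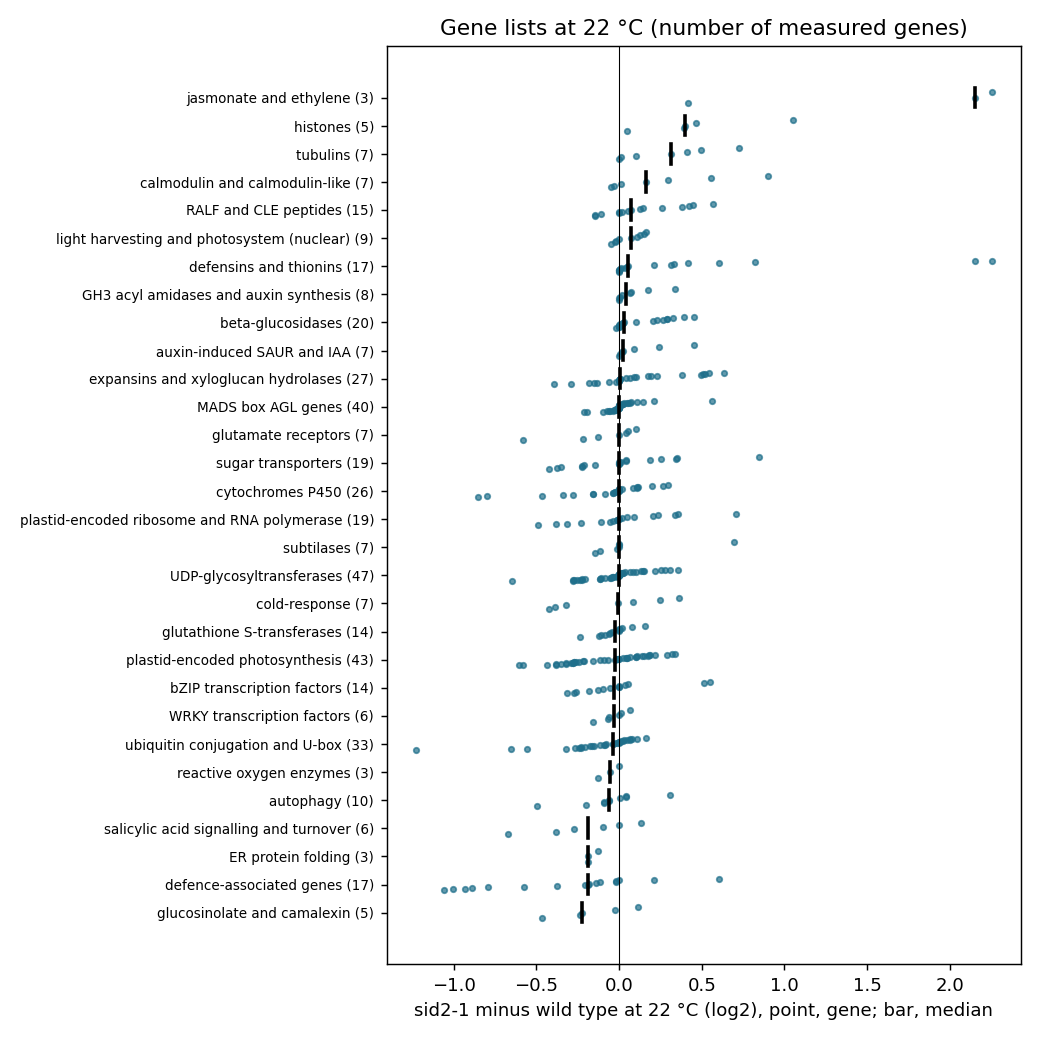
Log2 difference between sid2-1 and wild type at 22 °C for the genes of 30 lists, with 1 point per gene, the list median as a bar and the number of measured genes in brackets. Most medians lie near 0, with jasmonate and ethylene (2.15), histones (0.40) and tubulins (0.31) at the upper end and glucosinolate, defence-associated, endoplasmic reticulum protein folding and salicylic acid genes at the lower end (-0.23 to -0.18).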

How the data were processed

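Per the submitters' processing notes, the authors used GCRMA and limma, with no versions given; the deposited values are log2 signals per probe set, 1 array per sample. GCRMA corrects background from probe sequence, quantile-normalizes and summarises probes; which arrays it took together is not given in the sources used here. Array signal has no read depth; precision is set by 3 arrays a group.

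Of 22810 probe sets, 64 controls were left out. A platform table and a reference gene table joined 13436 probe sets to 1 gene; symbols follow the latter, or the locus where it gives none. A gene with several probe sets entered a list as their mean. No filter on low values was applied in the main fit. limma 3.58.1 in R 4.3.3 (lmFit, contrasts.fit, eBayes) fitted 1 mean per group over 12 arrays with 8 residual and 0.61 prior degrees of freedom, and all p-values are two-sided. Lists got counts and medians, and no test. Tables were made in pandas 2.3.3 on Python 3.11.15 and plots in matplotlib 3.10.9. The fit was run on simulated data with independent normal noise for each array. Those data had no replicate effect and no floor at the lowest value, so they do not bear on how either affects the calls.

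Replicate numbers come from the titles. They were taken to pair samples within a temperature, in the counts by pair and in the replicate block. The ground was that the deviations of all 3 same-numbered pairs correlated above 0.1 at 22 °C (0.283 to 0.467) and at 4 °C (0.211 to 0.252). The main fit has no block, so its p-values, standard errors and intervals ignore the pairing. With the block within each temperature the unadjusted p by limma was 0.0020 for GI, against 0.0186 in the main fit. For AT5G18780 it was 0.0533, against 0.0150.

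Named genes were those called, the 10 largest rises and 10 largest falls among genes with a mean above 4, an unadjusted p under 0.05 and no overlap, the 3 smallest p of each list, genes called in 3 or more alternatives, and a fixed set: AT2G40530, RING1, AT1G13470, HTB2, HTB11, COR15A, SBT3.3, CHI, AT5G52760 and the salicylic acid list. Genes outside it were chosen after their values were seen. The members and lists were chosen with earlier results of these data known. Alternatives covered the samples fitted, the block, the dim filter, the variance prior, the scaling, array weights and each array left out.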

Additional observations from a re-analysis of the deposited data

Results flagged for a closer look

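For 4 of the genes named here, among 14 probe sets called in all, the difference between sid2-1 and wild type changed between 22 °C and 4 °C in limma's test of the interaction. The heavy-metal-domain gene AT5G52760 differed by -0.19 in the warmth and -3.53 in the cold, a change of -3.34 ± 0.37 (SE, adjusted p = 0.0279 by limma). The TIR-domain genes AT1G57630 and AT2G20142 changed by -4.03 ± 0.47 (adjusted p = 0.0295) and -2.81 ± 0.27 (adjusted p = 0.0172) by the same test. AT2G40530 went the other way, from -0.51 in the warmth to -0.0033 in the cold, a change of 0.51 ± 0.06 (adjusted p = 0.0295 by limma), with all its values near the lowest of the table. With the replicate block within each temperature, limma called 0 probe sets in that test (1401 at an unadjusted p under 0.05), and the adjusted p-values of the 4 genes lay between 0.13 and 0.271.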

How the results depend on the processing

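The count of calls at 22 °C was 1 in the fit reported. It was 2 with the 6 arrays alone, 0 with the replicate block over 12 arrays, 0 with the replicate block within each temperature, 0 with signals above 4 only, 0 with array medians subtracted, and 0 with the last filter and the block together, an alternative chosen after seeing the data. Without replicate 2 of wild type at both temperatures, also chosen after seeing the data, it was 10, of which 1 had a mean above 4. Leaving out single arrays gave 2 to 20 calls (2 without wild-type replicate 1, 15 without replicate 2 and 20 without replicate 3; 3, 8 and 6 without sid2-1 replicates 1, 2 and 3). Of these 54 calls summed over 6 fits, 2 had a mean above 4, and 5 of the 6 fits called AT2G40530. The count at an unadjusted p under 0.05, 689 in the fit reported, was 1054 with the block within each temperature and 342 with signals above 4 only; leaving out single arrays gave 667 to 840. The count past 2-fold was 105 with array weights, and 65 to 163 with single arrays left out (163 without wild-type replicate 1, 127 without sid2-1 replicate 3, 96 without sid2-1 replicate 1), where means rest on fewer arrays. The median of the probe sets called lower at 4 °C ran from -0.22 to -0.045 with single arrays left out; it was -0.06 when the selection lacked the cold wild-type replicate 2, and -0.02 when both wild-type replicates 2 were left out, alternatives chosen after seeing the data. The 6 arrays at 4 °C fitted alone called no probe set and gave no value. The count within 2-fold stayed within 1.5 times under every alternative run.

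Named genes kept their direction in all but 15 of the settings by gene, most of them with single arrays left out. The sign turned for SBT3.3 after quantile normalization (0.0047) and with array weights (1.7e-05). With single arrays left out the difference ran from -0.01 to 0.005 for SBT3.3, -0.19 to 0.06 for GRX480, -0.32 to 0.052 for AT5G52760, -1.31 to 0.65 for STZ, -0.42 to 0.13 for CRT1b, -0.35 to 0.013 for PDIL5-1, -0.32 to 0.017 for BZIP60, -0.60 to 0.59 for COR15A, -0.23 to 0.025 for AT1G57630, -0.78 to 0.48 for BSMT1 and -0.09 to 0.29 for UGT74F1. XTH20 and TMT3 were called without wild-type replicate 2 (-0.42 and -0.30). The causes were not tested. The replicate block within each temperature also took the calls at 4 °C from 140 to 27 and those of the interaction from 14 to 0; over all 12 arrays it gave 162 and 3. Of the list medians, 444 of the settings moved by less than the spread between pairs and 94 by more.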
